A study of Rattus norvegicus with 50 samples.

Results

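The genes described here were 7 targets of the fatty-acid receptor PPAR-alpha and of fat oxidation, namely Acot1, Acot2, Pdk4, Cpt1a, Angptl4, Ucp3 and Ehhadh, out of 25208 genes tested in the lung of rats that had inhaled titanium dioxide nanoparticles. They were taken by their gene names on the array, where 8 probes carried them, and all 7 genes passed the filter on dim probes. The set was built around Acot1, which had been chosen by its measured log2 signal in these same rats, because it was higher late after exposure. That choice also named a direction against clock phase. Late after exposure the clock genes Dbp and Nr1d1 were likewise higher in exposed rats, and Arntl was lower. In control rats, from 3 to 28 days after exposure, mean Acot1 rose from 7.65 to 8.73. Over the same days Dbp fell from 15.31 to 10.80 and Arntl rose from 8.06 to 10.64. The part of the clock in Acot1 was not tested. Because of how Acot1 was chosen, its differences between exposed and control rats and between days are given as a description, with no test. All counts of genes past the threshold are over the other 6 genes.

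Male F344 rats, 12 weeks old per the labels, breathed an aerosol of TiO2 P25 (a commercial titanium dioxide nanopowder) through the nose only, at 10 mg/m3 for 6 hours per day, 5 days per week, over 4 weeks. Control rats breathed filtered air, and the labels give no other agent and no genetic change for either group. The accessory lobe of the lung was collected on the last day (D0) and 3 (D3), 28 (D28), 90 (D90) and 180 days (D180) later, from 5 control and 5 exposed rats at each time, so the 50 arrays formed 10 groups of 5. The labels give the same age for all groups and no age at collection. In comparisons between days, day after exposure and age at collection therefore cannot be told apart. Each rat gave 1 array of total RNA from the whole lobe, so fewer cells of a type and less RNA per cell cannot be told apart.

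PPAR-alpha is a nuclear receptor that binds fatty acids and, paired with a retinoid X receptor, switches on genes of fat breakdown, most of all in liver, heart, muscle and brown fat during fasting. Fatty acids enter mitochondria as carnitine esters through Cpt1a, and are burned there or, when very long, in peroxisomes, where Ehhadh carries out the middle steps. Acot1 in the cytosol and Acot2 in mitochondria split acyl-CoA esters back into free fatty acid and coenzyme A. Pdk4 blocks pyruvate dehydrogenase and so spares glucose, Ucp3 is a mitochondrial carrier known from skeletal muscle, and Angptl4 is a secreted protein that inhibits lipoprotein lipase.

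Values below are quantile normalised log2 signals, so 1 unit is a 2-fold difference, and a gene was called over-expressed or under-expressed at an adjusted p under 0.05 and at least 1.5-fold. The arrays lay on 7 slides. Those of D0, D3 and D28 were on slides 1 to 4 and those of D90 and D180 on slides 5 to 7, except for 1 exposed D3 rat on slide 7, and every slide held control and exposed rats. On each array 68.7 to 84.5% of the gene spots were well above background. All 10 lung markers on the list, among them Sftpc, Ager and Cdh5, were well above background on all 50 arrays. Skeletal muscle genes stood apart on 2 arrays: the mean log2 signal of 10 markers, Ckm and Acta1 among them, was 11.64 in exposed D28 replicate 2 and 10.16 in exposed D180 replicate 4, against at most 6.66 on all other arrays. The members' results at D28 and D180, and the counts of their gene lists, are therefore also given without those rats. Clock genes differed between the groups at every time, as given with their values further down.

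Because Acot1 and Acot2 are neighbouring genes of 1 family, the start of the probe that measured each is shown, to let a reader see that the probes are unlike. Each probe has 60 bases, of which the first 30 are printed, and positions are those of the array design on build rn4. The design places the Acot1 probe at chr6:108049691-108049750 and the Acot2 probes at chr6:108024282-108024341 and chr6:108023141-108023200, all on the plus strand. On build GRCr8 of the RefSeq annotation the genes are neighbours, Acot2 at chr6:109341426-109352818 and Acot1 at chr6:109367274-109375268, followed by Acot4, Acot3, Acot5 and Acot6.
Acot1: cagttgggtggtaagagtcatggggtgtcc
Acot2, probe used: taaaaatagtgcctatccaaaaatagagtt
Acot2, second probe: aaagtcaaaatgaccaaagatggtctcttg
The Acot1 probe shared a run of no more than 6 bases with either Acot2 probe and of no more than 8 with any probe named Acot3, Acot4, Acot5 or Acot6, and its longest run with any of the 30366 other gene probes was 12 bases. The whole transcripts were not compared, so signal from a related messenger RNA cannot be told apart from the gene's own. Where these probes lie within the exons was not looked up, since the annotation used here has another build. The Pdk4 probe spans 1889 bases of the genome, chr4:30239150-30241038 on the minus strand, and so covers more than 1 exon by the coordinates of the design. The other probes lie at chr1:205912066-205912125 for Cpt1a, chr7:16261624-16261683 for Angptl4 on the minus strand, chr1:157909519-157909578 for Ucp3 and chr11:81506762-81506821 for Ehhadh.

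The 250 bases before the annotated start (RefSeq, build GRCr8) were searched for the element that PPAR and its partner bind, AGGTCA followed after 1 base by a second AGGTCA, with up to 2 mismatches on either strand. A match was found in 1 of the 7 genes, Ucp3, and in 3.15% of 33469 rat promoters of that length. It began 57 bases before the start on the plus strand, with AGGTTT as its first part and AGGTCA as its second, and is set in capitals below beside the promoter of Acot1, which had none. The clock elements CACGTG (5.59% of promoters) and TTATGTAA (0.828%) were in none of the 7 windows, nor was the glucocorticoid receptor element, AGAACA and TGTTCT with 3 bases between and up to 2 mismatches (1.58%). These are matches of letters in 1 window, and say nothing of binding elsewhere. The start used is the one of the promoter table. For Acot1, Pdk4, Ucp3 and Ehhadh the window lay directly before the outer end of the annotated gene, whereas for Acot2, Cpt1a and Angptl4 it lay inside the annotated gene, whose outer start was not searched.
Acot1, chr6:109367024-109367273, plus strand: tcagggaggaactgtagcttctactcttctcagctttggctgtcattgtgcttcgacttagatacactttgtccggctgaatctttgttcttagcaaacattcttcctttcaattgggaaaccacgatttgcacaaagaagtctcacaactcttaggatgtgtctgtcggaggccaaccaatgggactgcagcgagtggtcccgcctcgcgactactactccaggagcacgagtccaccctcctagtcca
Ucp3, chr1:164227660-164227909, plus strand: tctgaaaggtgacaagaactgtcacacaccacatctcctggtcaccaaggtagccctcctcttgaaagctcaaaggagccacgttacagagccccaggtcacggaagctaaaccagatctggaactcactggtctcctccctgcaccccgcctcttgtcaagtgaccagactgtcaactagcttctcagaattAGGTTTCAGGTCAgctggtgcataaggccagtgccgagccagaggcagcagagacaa

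Acot1 had its highest levels in exposed rats of the last 2 times. At D180 its log2 signal in the exposed rats was 10.98, 10.34, 10.73, 10.33 and 10.29, and in the control rats 8.20, 8.51, 8.87, 8.43 and 9.03. The groups were more than 1 unit apart at their closest, and the means of 10.53 ± 0.31 and 8.61 ± 0.34 (SD, n = 5) differed by 1.92, or 3.79-fold. At D90 the exposed rats read 10.74, 10.24, 10.92, 9.58 and 10.44 and the control rats 8.67, 8.49, 9.44, 8.52 and 8.92. Again every exposed rat was above every control rat, although the lowest exposed and the highest control rat were close, and the mean difference was 1.57 (2.98-fold).

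At D28 the levels were 10.51, 9.80, 9.70, 8.92 and 10.11 with exposure and 8.29, 8.11, 9.01, 9.29 and 8.96 without, a mean difference of 1.08 (2.11-fold). Here 4 of 5 exposed rats lay above all control rats, and the remaining one, replicate 4, lay within the control range. The D0 levels were 8.52, 8.60, 8.75, 8.09 and 9.0 in exposed and 8.45, 8.34, 7.96, 8.06 and 7.85 in control rats, and the D3 levels were 7.63, 7.73, 7.73, 8.10 and 7.84 against 7.94, 7.52, 7.36, 7.29 and 8.14. The differences were then 0.46 and 0.15, and the groups overlapped at both times. Within slides Acot1 was higher in exposed rats on 3 of 3 slides at D90 (1.30 to 1.77) and D180 (1.64 to 2.13), on 4 of 4 slides at D0 and D3, and on 2 of 3 slides at D28 (-0.10 to 1.41). Without the 2 rats high in muscle markers the difference was 1.08 at D28 and 1.98 at D180.

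**Figure D1:**
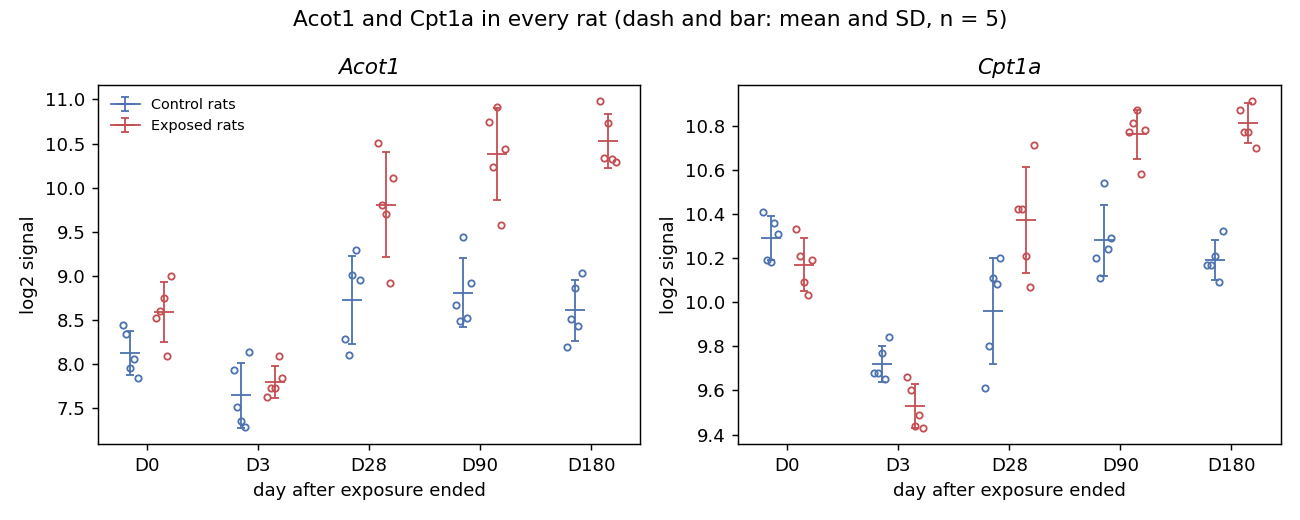
Log2 signal (vertical axes) of Acot1 and Cpt1a in each control and exposed rat by day after exposure (horizontal axes), where open circles are rats and the dash and bar are mean and SD of 5 rats. In both panels the exposed rats of D90 and D180 lie above all controls of the same day, by 1.57 and 1.92 on average for Acot1 and by 0.49 and 0.61 for Cpt1a.

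The order of the 10 group means of Acot1 ran from exposed D180, D90 and D28 (10.53, 10.38 and 9.81) through control D90, D28 and D180 (8.81, 8.73 and 8.61), exposed D0 (8.59) and control D0 (8.13) to exposed and control D3 (7.80 and 7.65). Each pair of neighbours in that order overlapped in range, and the gap of 1.00 between exposed D28 and control D90 was the only one over 0.57. Among control rats the mean was 1.08 higher at D28 than at D3, on the same slides. The probe was spotted 10 times per array, and those spots differed by an SD of 0.06 (median over arrays), which is small beside the SD of 0.40 between rats of a group.

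Acot2, the mitochondrial relative, had smaller differences, and none passed the test. Its log2 signal at D180 was 10.59, 10.96, 10.74, 10.65 and 10.61 in exposed rats and 10.28, 10.18, 10.17, 10.23 and 10.37 in controls, and at D90 it was 10.70, 10.67, 10.57, 10.42 and 10.48 against 10.34, 10.13, 10.41, 10.27 and 10.38. The groups did not overlap at either time, but at D90 the nearest rats were 0.01 apart. The differences of 0.47 ± 0.14 (SE, limma adjusted p = 0.117) and 0.26 ± 0.14 (adjusted p = 0.8) had 95% intervals of 0.18 to 0.75 and -0.02 to 0.55. With slide as a block the adjusted p was 4.7e-04 at D180 (0.44) and 0.0371 at D90 (0.26), both under the 1.5-fold limit, where 4.11% and 4.35% of all genes had such a p. At D0, D3 and D28 the differences were 0.25 (95% interval -0.03 to 0.54), -0.16 (-0.44 to 0.12) and 0.06 (-0.22 to 0.34). Without the muscle-high rats Acot2 differed by 0.13 at D28 (adjusted p = 0.839) and by 0.48 at D180 (adjusted p = 0.168). The second Acot2 probe, dimmer and with spots that differed more, gave -0.02, -0.04, 0.25, 0.23 and 0.56 from D0 to D180, so both probes were highest at D180 and they disagreed in sign at D0.

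Cpt1a, the gate of mitochondrial fat oxidation, was over-expressed at D180, the only one of the 6 tested genes called at that time, where 0.325% of all genes were called. The exposed rats had 10.87, 10.77, 10.77, 10.91 and 10.70 and the control rats 10.17, 10.17, 10.21, 10.09 and 10.32. No exposed rat came near a control rat, and the difference was 0.61 ± 0.09 (SE, 1.53-fold, limma adjusted p = 5.4e-05). At D90 the levels of 10.77, 10.81, 10.87, 10.58 and 10.78 against 10.20, 10.11, 10.54, 10.24 and 10.29 were also separate, although the lowest exposed rat (10.58) and the highest control rat (10.54) were close. The difference of 0.49 ± 0.09 (1.40-fold, limma adjusted p = 0.00196) lay under the 1.5-fold limit. At D28 they were 10.42, 10.42, 10.21, 10.07 and 10.71 against 9.61, 9.80, 10.11, 10.08 and 10.20, and 4 of 5 exposed rats were above all controls. That difference was 0.41 ± 0.09 (1.33-fold, limma adjusted p = 0.00594), also under the fold limit, and its mean within slides was 0.24. None of the 6 tested genes was called at D28 or D90, where 1.33% and 0.381% of all genes were, and 1 of 6, Cpt1a, had an adjusted p under 0.05 at each of these times (3.88% and 1.05% of all genes). Without the muscle-high rats Cpt1a differed by 0.39 at D28 (adjusted p = 0.0202) and by 0.59 at D180 (adjusted p = 5.4e-04, still called).

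At the first 2 times Cpt1a was not called. Its difference was -0.12 at D0 (95% interval -0.31 to 0.07) and -0.20 at D3 (-0.39 to -0.01, limma adjusted p = 0.204), where the exposed rats read 9.66, 9.60, 9.44, 9.49 and 9.43 and the controls 9.68, 9.68, 9.77, 9.65 and 9.84, and 4 of 5 exposed rats were below every control. The exposure effect was larger at D90 than at D0 by 0.60 ± 0.13 (limma adjusted p = 0.00273) and at D180 by 0.73 ± 0.13 (adjusted p = 2.1e-04, or 0.71 without the muscle-high rats, adjusted p = 8.4e-04). With slide as a block the change at D90 was 0.57 (adjusted p = 4.4e-04), under the fold limit, and Pdk4 and Angptl4 were called there instead. Without control D0 replicate 1, control D90 replicate 2, exposed D0 replicate 3 or 4 or exposed D90 replicate 3 the change at D90 was 0.56 to 0.58, under the fold limit. Cpt1a was the only 1 of the 6 genes called in these tests of the change in effect, which called 2.17% and 2.24% of all genes, and for D28 against D0 the change of 0.53 (adjusted p = 0.0162, or 0.51 and 0.035 without the muscle-high rat) was under the fold limit and 0 of 6 were called (1.61% of all genes). For D3 against D0 likewise 0 of 6 were called (0.678% of all genes), with adjusted p from 0.484 to 0.916. The D180 call rested narrowly on the fold limit, since the difference was 0.57 after normexp background correction and 0.55 in the authors' value table, with adjusted p of 3.6e-05 and 5.6e-04. In control rats Cpt1a was 0.57 lower at D3 than at D0 (limma adjusted p = 3.8e-05), just under the fold limit. Its group means ran from exposed D180, D90 and D28 (10.81, 10.76 and 10.37) down to control and exposed D3 (9.72 and 9.53), and each neighbouring pair overlapped in range.

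Ehhadh, the peroxisomal enzyme, showed no called difference. At D180 the exposed rats had 7.28, 7.21, 7.26, 7.24 and 7.05 and the control rats 6.90, 7.00, 6.58, 6.18 and 6.94, so that every exposed rat was above every control, although by as little as 0.05. The difference was 0.49 ± 0.23 (95% interval 0.03 to 0.95, limma adjusted p = 0.55). Its differences at the earlier times were -0.03, -0.27, -0.01 and 0.27, with adjusted p from 0.54 to 1. Without the muscle-high rats the differences were 0.06 at D28, above 0, and 0.48 at D180 (adjusted p = 0.972 and 0.709). Its level was highest in both D0 groups (7.45 and 7.42) and lowest in control D180 (6.72), but D90 and D180 were on other slides than D0, so day, age at collection and slide cannot be told apart in that order. No neighbouring pair of its group means was separate.

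Angptl4, the secreted inhibitor of lipoprotein lipase, was over-expressed at D0 and D3. At D3 the exposed rats had 10.66, 10.39, 10.49, 10.73 and 10.59 and the controls 9.90, 9.75, 9.23, 9.08 and 9.70, with no overlap. That difference was 1.04 ± 0.18 (2.06-fold, limma adjusted p = 5.7e-05). At D0 the levels were 10.17, 10.86, 10.94, 10.63 and 10.93 against 9.65, 9.87, 10.26, 10.12 and 9.32, where 1 exposed rat lay inside the control range, and the difference was 0.86 ± 0.18 (1.82-fold, limma adjusted p = 5.7e-04). Together with the under-expression of Pdk4 at D0 and Ucp3 at D3 this made 2 of 6 called at each time, the call of Pdk4 resting on signals near background, where 4.28% of all genes were called at D0 and 3.48% at D3. On slides 1 to 4 Angptl4 was higher in exposed rats on 4 of 4 at D0 (0.62 to 1.07) and D3 (0.82 to 1.41).

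The control groups of D0 and D3 had the lowest Angptl4 levels of all 10 groups. The exposed means were 10.71, 10.57, 10.86, 10.97 and 11.25 from D0 to D180, while the control means were 9.85, 9.53, 10.82, 10.92 and 10.87. In control rats Angptl4 was higher at D28 than at D3 by 1.29 ± 0.18 (2.44-fold, limma adjusted p = 6.0e-06), the only call among the 6 genes in that comparison (0.639% of all genes). No member was called between D0 and D3 controls (2.33% of all genes) or between D90 and D180 controls (0.0198%). At D28 and D90 the exposed and control rats differed by 0.04 (95% interval -0.33 to 0.41) and 0.05 (-0.31 to 0.42), and at D180 by 0.38 ± 0.18 (limma adjusted p = 0.579), or by 0.49 without the muscle-high rat (adjusted p = 0.385). Among neighbours in the order of group means of the 7 genes, exposed D3 and control D0 of Angptl4 (10.57 and 9.85) were the only pair whose ranges did not overlap. The exposure effect was 0.82 lower at D28 than at D0 (limma adjusted p = 0.0808) and 0.81 lower at D90 (adjusted p = 0.0703), and with slide as a block these became 0.72 and 0.78 lower, with adjusted p of 0.0391 and 0.0153 (8.44% and 13.3% of all genes). At D180 the effect was 0.48 lower than at D0 (adjusted p = 0.446), and the blocked fit put it 0.38 lower (adjusted p = 0.316). With all arrays, the usual filter and no block, none of these changes in the effect on Angptl4 was called, and without the muscle-high rats those at D28 and D180 were 0.85 lower and 0.37 lower (adjusted p = 0.0848 and 0.701).

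Pdk4, the brake on pyruvate dehydrogenase, was near background, being well above it on 36 of 50 arrays and, at D0, on 3 of 5 control and 1 of 5 exposed arrays. The D0 levels were 4.59, 4.13, 3.21, 4.02 and 4.82 in exposed and 5.30, 5.59, 5.86, 5.12 and 4.65 in control rats. Of the controls 4 of 5 were above all exposed rats, and the difference of -1.15 ± 0.40 (limma adjusted p = 0.0484) was called. With 1 exposed array well above background, the size of that difference is not measured. The call was lost in most other settings: the difference was -0.90 with 75th percentile scaling, -0.30 after normexp correction and -0.38 in the authors' value table, with adjusted p of 0.0671, 0.0856 and 0.0745. Leaving out single rats gave -1.32 to -0.91, and the call was lost without any of control replicates 1, 2, 3 and 4 or exposed replicates 2, 3 and 4. At the other times Pdk4 had differences of -0.57, -0.16, 0.52 and -0.47, with intervals that all included 0. Without the muscle-high rats it had -0.09 at D28 and -0.55 at D180 (limma adjusted p = 0.979 and 1).

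Ucp3, the mitochondrial carrier whose promoter holds the match shown above, was under-expressed at D3. There the levels were 7.88, 8.12, 8.26, 8.76 and 8.95 with exposure and 9.33, 9.30, 8.67, 8.91 and 9.32 without. Of the controls 3 of 5 were above all exposed rats, and the difference was -0.71 ± 0.21 (1.64-fold lower, limma adjusted p = 0.0167). With slide as a block it was -0.52 (adjusted p = 0.00115), under the fold limit. Within the 10 arrays of that day alone the adjusted p was 0.137, and it rose above 0.05 without control replicate 1 or 5 or exposed replicate 1 or 2 (-0.66 to -0.58, adjusted p 0.0518 to 0.0842).

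At D0 Ucp3 read 8.15, 8.26, 8.95, 8.38 and 9.12 against 8.78, 9.52, 9.55, 9.02 and 8.47, a difference of -0.50 ± 0.21 (limma adjusted p = 0.113), and at D28 9.05, 8.44, 9.03, 8.68 and 8.60 against 9.63, 9.42, 9.08, 9.51 and 8.88, a difference of -0.54 ± 0.21 (adjusted p = 0.14). Neither passed the test, and the groups overlapped. With slide as a block the adjusted p was 2.5e-04 at D0 (-0.54) and 0.017 at D28 (-0.39), where 28.1% and 12.4% of all genes had an adjusted p under 0.05 in that fit. Ucp3 was lower in exposed rats on 4 of 4 slides at D0 and D3 and on 3 of 3 at D28. At D90 and D180 the differences were 0.01 (95% interval -0.40 to 0.42) and 0.04 (-0.38 to 0.45). The rat at D28 that was highest in muscle markers had the lowest Ucp3 of its group, 8.44, and without it the D28 difference was -0.46 (adjusted p = 0.348). Without the D180 rat the difference there was 0.02 (adjusted p = 1).

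**Figure D2:**
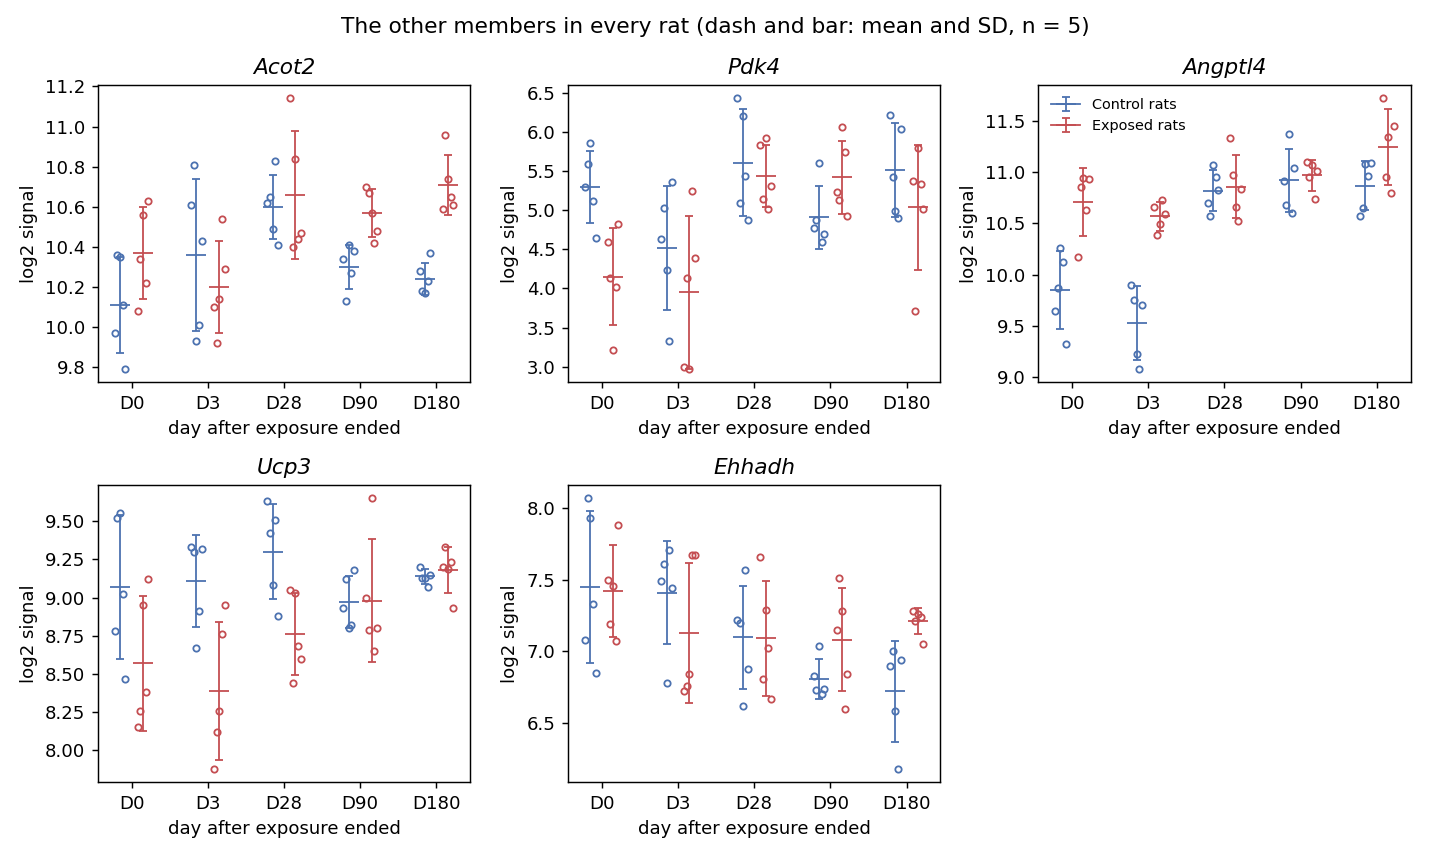
Log2 signal (vertical axes) of the 5 remaining genes in each control and exposed rat by day after exposure (horizontal axes), with open circles for rats and the dash and bar for mean and SD of 5 rats. Angptl4 is low in controls of D0 and D3 alone, and the exposed mean of Ucp3 is the lower one up to D28. The groups of Acot2 do not overlap at D90 and D180, nor do those of Ehhadh at D180.

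**Figure D3:**
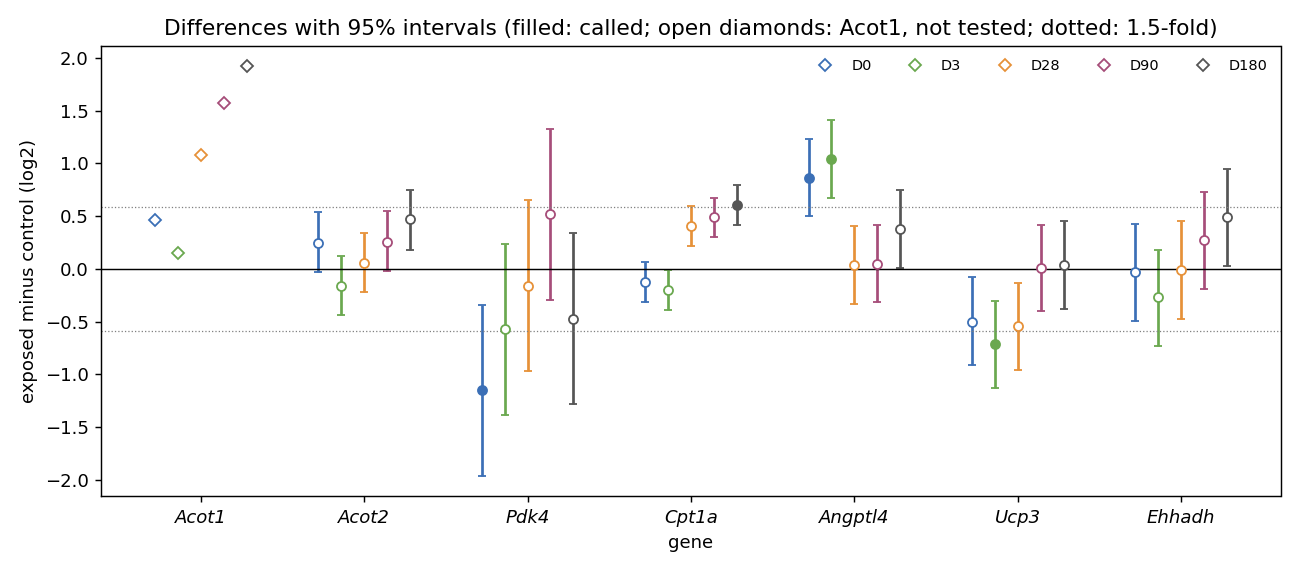
Exposed minus control log2 difference (vertical axis) of each gene (horizontal axis) at 5 times, with 95% intervals from limma for the 6 tested genes, filled circles for calls and dotted lines at 1.5-fold. The open diamonds of Acot1, which was not tested, reach 1.92 at D180, while the calls are Angptl4 at D0 and D3, Pdk4 at D0, Ucp3 at D3 and Cpt1a at D180.

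Counted over the 6 tested genes, 0, 1, 0, 2 and 3 had groups that did not overlap from D0 to D180, where 8.53, 6.79, 3.80, 3.83 and 4.23% of all genes did. These were Angptl4 at D3, Acot2 and Cpt1a at D90, and Acot2, Cpt1a and Ehhadh at D180. With an adjusted p under 0.05 and no fold limit, 2, 2, 1, 1 and 1 of 6 passed, against 13.5, 10.4, 3.88, 1.05 and 0.893% of all genes. With slide as a block 4, 3, 2, 2 and 2 of 6 did so, against 28.1, 19.6, 12.4, 4.35 and 4.11%.

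Correlations among the 7 genes depended on whether slides or groups were centred. Over the 50 arrays, after centring on slide means, Acot1 correlated with Acot2 (Pearson r = 0.84), Cpt1a (0.84) and Angptl4 (0.65), and little with Pdk4 (0.31), Ehhadh (0.19) and Ucp3 (0.16). Among rats of the same group, with the group means taken away, Acot1 went with Angptl4 (r = 0.66) and Cpt1a (0.65) and less with Acot2 (0.41), while Acot2, Ucp3 and Ehhadh had r of 0.70 to 0.73 with each other. These 3 values were lower once slides were centred: after slide centring alone Acot2 had r = 0.14 with Ucp3 and 0.00 with Ehhadh, and Ucp3 had 0.01 with Ehhadh. With group and slide means both taken away they were 0.03, 0.04 and 0.22, whereas Acot1 had 0.86 with Cpt1a, 0.68 with Angptl4 and 0.52 with Acot2. Cpt1a and Acot2 had r = -0.12 within groups and 0.46 within groups and slides. These are descriptions over arrays that share slides and groups.

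The genes most like Acot1 among 17319 genes with a symbol, by r over the 50 slide-centred arrays, were Acadl (0.93), Hsd17b4 (0.87), Cpt1a (0.84), Acot2 (0.84) and Slc25a20 (0.81). Acadl starts the oxidation of long acyl chains in mitochondria, Hsd17b4 acts in peroxisomes and Slc25a20 carries acylcarnitines across the inner mitochondrial membrane. For Cpt1a they were Acaa2 (0.88), Acadl (0.86) and Aqp3 (0.84), for Acot2 Decr1 (0.85), Acot1 (0.84) and Hsd17b4 (0.76), and for Angptl4 Pex11a (0.76), Bmf (0.76) and Crat (0.75). Pdk4 was like Bnip3l and Fbxl20 (each 0.77), Ucp3 most like Cpe (0.84), Abca2 and Cryab (each 0.82), and Ehhadh most like Dcxr (0.64), Mccc2 (0.63) and Lin9 (0.62).

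The wider set of mitochondrial fat oxidation genes gave no call between exposed and control rats in any of 20 tested genes at any time. Differences were small and mostly above 0 at the late times. In the change of the exposure effect from D0 to D90, 1 of 20 was called, as higher, where 2.17% of all genes were called. Their median difference was 0.03 and -0.03 at D0 and D3 and then 0.17, 0.18 and 0.16 at D28, D90 and D180, against medians of all genes between -0.01 and 0.00. The difference was above 0 for 11 and 10 of 20 at D0 and D3 and for 18, 19 and 19 of 20 afterwards, where 49.7 to 51.1% of all genes were. With an adjusted p under 0.05 and no fold limit, 4, 5, 4, 4 and 3 of 20 passed from D0 to D180, against 13.5, 10.4, 3.88, 1.05 and 0.893% of all genes. Without the muscle-high rats the median was 0.17 at D28 and at D180, 18 of 20 genes were above 0 at each, and 0 were called. The genes with an adjusted p under 0.05 in the fit to all 50 arrays were named after their values were seen. At D90 they were Cpt1b (0.36), Acaa2 (0.35), Slc25a20 (0.29) and Acadl (0.27), and at D180 Decr1 (0.38), Acadl (0.30) and Slc25a20 (0.22).

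Peroxisomal fat oxidation gave a like picture, with 0 of 18 called between exposed and control rats at any time. In the change of the exposure effect from D0 to D28, 1 of 18 was called, as lower, where 1.61% of all genes were called. The medians were 0.04, -0.03, 0.11, 0.12 and 0.14, and 11, 8, 14, 16 and 16 of 18 genes were above 0 from D0 to D180. With the muscle-high rats left out the medians were 0.11 at D28 and 0.15 at D180, with 14 and 16 of 18 above 0 and 0 called. Scp2, which carries lipids and works as a peroxisomal thiolase, had an adjusted p under 0.05 at all 5 times, with differences of 0.23, 0.20, 0.39, 0.28 and 0.24. Of the other acyl-CoA thioesterases 0 of 9 was called at any time, and at D180 they ranged from -0.03 (Acot13) to 0.44 (Acot12). Acot3, Acot4 and Acot5, next to Acot1 on chromosome 6, had 0.30, 0.07 and 0.30 at D180 (limma adjusted p = 0.607, 1 and 1), where Acot1 had 1.92.

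Other targets of PPAR gave no call between exposed and control rats, with 0 of 22 in the list of lipid uptake, lipid droplets, ketone bodies and omega-oxidation at every time. Their medians lay between -0.05 and 0.06. Plin2, which coats lipid droplets, had 0.34, 0.23, 0.23, 0.01 and 0.13. In control rats, however, Lipe, hormone-sensitive lipase, was lower at D3 than at D0 and higher at D28 than at D3 (-0.65 and 0.73, limma adjusted p = 0.016 and 0.0205). Pex11a, which drives the growth of peroxisomes, rose in controls from D3 to D28 by 0.74 (adjusted p = 1.6e-06), the same comparison in which Angptl4 was called. That comparison called 2 of 22 lipid genes, 1 of 18 peroxisomal genes and 10 of 14 clock genes, against 0.639% of all genes. Between D0 and D3 controls 2 of 22 lipid genes were called, against 2.33% of all genes.

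Among the receptors and their partners 1 of 12 was called, at D3, where 3.48% of all genes were called. Ppargc1a, a coactivator of PPAR-alpha, fell by 0.92 on the log2 scale (limma adjusted p = 0.00276). The medians of this list were -0.19, -0.15, -0.13, 0.02 and 0.03 from D0 to D180. Of its 12 genes 1, 4, 2, 6 and 7 were above 0, where 48.3 to 51.1% of all genes were. With an adjusted p under 0.05 and no fold limit, 3 of 12 passed at D0 (13.5% of all genes), all lower. Ppara itself had -0.29, -0.35, -0.36, -0.04 and 0.04, with adjusted p from 0.389 to 1. Relatives of Pdk4 and Ucp3, with 8 genes tested from Pdk1 to Ucp2, gave 0 calls at any time. The receptor, thioesterase, lipid target and kinase lists also had 0 calls at D28 and D180 when the muscle-high rats were left out.

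**Figure D4:**
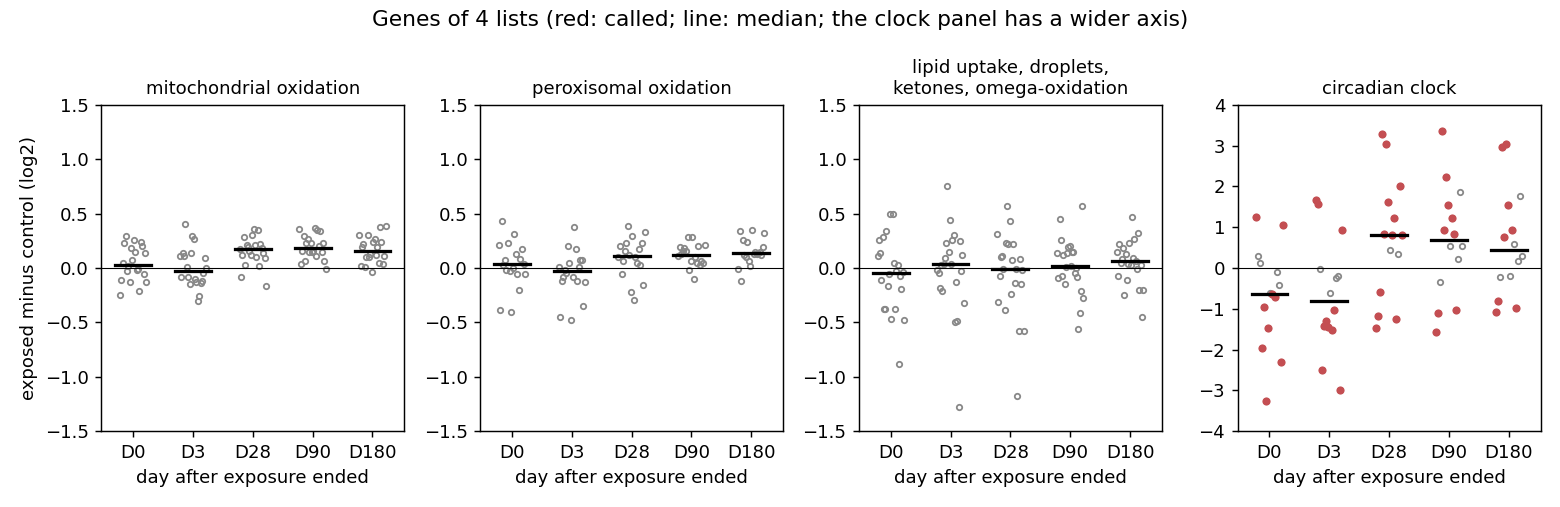
Exposed minus control log2 difference (vertical axes) of single genes in 4 lists by day after exposure (horizontal axes), with red for called genes, grey for the rest and a line at the list's median. The mitochondrial and peroxisomal medians are 0.16 and 0.14 at D180 with no call, while the clock median, on a wider axis, changes sign between D3 and D28.

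Of 14 clock genes 9, 10, 12, 9 and 8 were called from D0 to D180, against 4.28, 3.48, 1.33, 0.381 and 0.325% of all genes. The 3 named here had opposite directions up to D3 and from D28 on. Dbp, a clock output factor, differed by -1.95, -2.49, 3.27, 3.36 and 2.97, Nr1d1, a repressor in the clock loop, by -3.27, -1.31, 3.04, 2.22 and 3.03, and Arntl, its core activator, by 1.26, 1.67, -1.47, -1.58 and -1.09. In controls Dbp was at 15.31 at D0 and D3 and between 10.80 and 10.88 later, and in exposed rats at 12.82 to 14.24. Across the 10 group means Ehhadh went with Dbp (r = 0.79) and against Arntl (-0.86), Angptl4 went with Arntl (0.73), and Acot1 and Cpt1a had r of 0.04 and 0.15 with Dbp and of 0.21 and 0.03 with Arntl. Group means carry the slides with them, and over the 50 slide-centred arrays the values with Dbp and Arntl were 0.28 and -0.12 for Acot1, 0.45 and -0.42 for Cpt1a, 0.53 and -0.56 for Ehhadh and -0.40 and 0.52 for Angptl4. Leaving out the muscle-high rats, 11 of 14 clock genes were called at D28 and 7 at D180. The hour at which each rat was killed is not given in the sources used here, and the part of the clock in the differences was not tested.

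Genes that answer glucocorticoids or fasting were called in 4, 4, 3, 0 and 0 of 15, with Lcn2, an iron-binding protein of inflamed tissue, at 3.22 and 2.45 at D0 and D3, the metallothioneins Mt1a (1.20 and 0.71) and Mt2A (1.35 and 0.62) beside it, and Dusp1, a phosphatase induced by stress, at -1.07 at D0. Klf9, a glucocorticoid-induced factor, was at -0.63 at D3, and at D28 Zbtb16 was at -2.74 and Fkbp5 at -1.05, both known steroid-induced genes, while Mt1a was at 0.59. Without the muscle-high rat of D28 the count there was 1 of 15, Mt1a, and Zbtb16 and Fkbp5 were not called. Hypoxia genes gave 2, 0, 1, 1 and 0 calls of 10, with Adm, a vasodilator peptide, at 0.62 at D0 and at -0.85 and -1.06 at D28 and D90, and Slc2a1, a glucose transporter, at 0.67 at D0. Over all genes 4.28, 3.48, 1.33, 0.381 and 0.325% were called from D0 to D180.

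Markers of other cells were also called, mostly at the early times, and their part in the members' differences was not tested. Over all genes the shares called were 4.28, 3.48, 1.33, 0.381 and 0.325% from D0 to D180. Of 8 neutrophil markers 2, 2 and 1 were called at D0, D3 and D28 and 0 later, with S100a9 at 1.69, 1.68 and 0.88 and S100a8 at 1.37 and 1.56. The mean log2 signal of the neutrophil list was 8.84 to 9.23 in exposed against 8.36 to 8.90 in control rats at D0. At D90 and D180, where Acot1 and Cpt1a were separate between the groups, 0 of 8 neutrophil, 0 of 8 alveolar macrophage, 0 of 10 skeletal muscle, 0 of 11 heart muscle and 0 of 10 fat markers were called, and of 8 liver markers Cyp2e1 alone at D90 (0.67). Macrophage markers nonetheless lay above 0 in 7 of 8 at D28, D90 and D180, with medians of 0.22, 0.19 and 0.15. Their mean log2 signal was 10.51 to 10.64 in exposed and 10.34 to 10.51 in control rats at D90, and 10.55 to 10.72 against 10.38 to 10.67 at D180. Fat markers were above 0 in 9 of 10 at D90 (median 0.28) and in 6 of 10 at D180 (0.06), with mean signals at D90 of 6.43 to 7.04 in exposed and 6.20 to 6.73 in control rats. Heart muscle markers were above 0 in 7 of 11 at D90 (median 0.18) and in 2 of 11 at D180 (-0.02). Skeletal muscle markers were above 0 in 10 of 10 at D28 and D180 (medians 1.16 and 1.09), and without the 2 muscle-high rats in 6 and 8 of 10 (0.04 and 0.31). Of 8 macrophage markers Siglec1 was called at D3 (0.94), and of the liver markers Cyp2e1 (-0.82 and -0.80 at D0 and D3) and Apoa1 (-0.65 at D0). Marco, a scavenger receptor of alveolar macrophages, was well above background on 11 of 50 arrays. Apoa1, called at D0, was so on 27 of 50. Among other dim markers were Alb (2 of 50), Fgb (1), Tat (4), Ltf (3), Myh4 (5) and Nppa (13), so the counts of markers called include some near background. Among fat markers Plin1 was well above background on 1 of 50 arrays and Lep on 9. Other markers were strong on all 50 arrays. The heart muscle markers Myh6, Actc1, Myl7 and Tnnt2 had mean log2 signals of 13.24, 13.19, 13.57 and 12.09, and the fat marker Cidea had 11.61. Which cells gave the members' signal was not tested.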

How the data were processed

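Lung RNA of 50 rats was hybridised to 1-colour Agilent arrays, and per the labels and file headers the authors scanned them and extracted the spots with Feature Extraction 11.0.1.1. The deposited scanner files give the processed intensity of each spot, which the software had corrected for background, with 62976 spots per array, of which 58717 are gene spots of 30367 probes. A deposited series table, used on a log2 scale as an alternative, holds spot intensities that had the same distribution on every array and a rank correlation of 1 with each array's median signal, so they were quantile normalised with no background subtraction. The authors' own steps for the reported study, per its methods, were probe filtering against negative controls, quantile normalisation, batch correction and limma.

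In this work spots flagged as outliers were left out (324 to 872 per array), log2 signals were averaged per probe and quantile normalised, and probes above the 95th percentile of negative controls on at least 5 arrays were kept (29549 probes, 25208 genes, the probe of highest mean for each gene). limma 3.58.1 under R 4.3.3 fitted 10 group means over all 50 arrays, with Benjamini-Hochberg adjustment over all genes. All samples were grouped by title. The precision is limited by 5 rats per group, and median processed signals ran from 198 to 473. No column of other samples was used. The fit was tested on simulated normal values, drawn independently around each gene's own mean with its own SD within groups. Slide effects and correlation between genes were not simulated, so these figures do not cover them. For exposed against control at D180, 73% of genes changed 2-fold and 95% of those changed 4-fold among 24998 genes were called, with 4 false calls, and at D0 66% and 91%, also with 4 false calls.

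The members, the gene lists, the markers and the tests were chosen with earlier results of these data known, so no list's pattern is independent support. The text names the members, up to 4 called genes of each list and day by size, Dbp, Nr1d1 and Arntl, and the nearest genes by correlation, and other list genes were named after their values were seen. Some genes that this rule would name are not reported here. Of the lists, 1 gene each was not tested among 10 thioesterases, 23 lipid genes, 15 clock genes and 16 glucocorticoid genes. Same-numbered control and exposed rats were different animals, and their deviations correlated between -0.34 and 0.45, over 0.1 in 8 of 25 pairs, so the numbers pair nothing. Alternatives were another scaling, background correction, filter, probe, slide as a block, the day's arrays alone, the series table, a replicate block, no fold limit and leaving out each array. Leaving out the arrays high in muscle markers was added after seeing the data. Sequences were read from the array files and from RefSeq promoters (GRCr8), which held all 7 genes, with Python 3. Gene names are those of the array design.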

Additional observations from a re-analysis of the deposited data

Results flagged for a closer look

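Of 70 groups of 5 rats examined over the 7 genes, 1 held a rat far from the others by Dixon's test, where chance gives about 1 in 20. It was control D3 replicate 3 for Ehhadh, at a log2 signal of 6.78 against 7.44 for the nearest rat of the group.

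The exposure effect on Cpt1a differed between times by a test of the change itself, being 0.60 higher at D90 than at D0 (SE 0.13, limma adjusted p = 0.00273) and 0.73 higher at D180 than at D0 (SE 0.13, adjusted p = 2.1e-04). Every exposed rat was above every control rat at D90 and D180, narrowly so at D90 (10.58 against 10.54 at the closest), while at D0 the groups overlapped. The change at D90 fell under the 1.5-fold limit with slide as a block (0.57) and without control D0 replicate 1, control D90 replicate 2, exposed D0 replicate 3 or 4 or exposed D90 replicate 3 (0.56 to 0.58).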

How the results depend on the processing

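The limits are 5 rats per group, 1 probe for most genes, D90 and D180 on other slides than the earlier days, and weak signal for Pdk4. Over the alternatives, the count of called genes stayed within 1.5 times for 239 of 284 values. For single genes 858 of 930 values kept their direction and, where tested, their side of the threshold. The values of Acot1 and the means within slides had no test, and were counted as kept with the same sign and a shift smaller than the SD between rats. Of the other values 27 lost and 16 gained a call, 28 changed sign and 1 moved by more than that SD. At D0 the count of 2 became 1 with 75th percentile scaling, normexp correction, the lowest-signal probe, the series table or the day's arrays alone, Pdk4 being lost each time. At D3 the 2 calls became 1 (Ucp3 lost) with slide as a block or the day's arrays alone, and at D180 the 1 became 0 (Cpt1a) with normexp or the series table. With no fold limit, Cpt1a was 1 call in place of 0 at D28 and D90, in the D28 change and in control D3 against D0. The change in effect from D0 to D28 had 1 call with slide as a block, and that from D0 to D90 had 2 with a stricter filter (Cpt1a and Angptl4), slide as a block (Pdk4 and Angptl4, with Cpt1a lost at 0.57) or the days' arrays alone (Pdk4 and Cpt1a). Leaving out single arrays gave 1 to 3 calls at D0, 1 to 2 at D3, 0 to 1 for the D28 change, 0 to 2 for the D90 change and 0 to 1 for control D3 against D0, while the other counts stayed the same. Calls were gained for Ucp3 at D0 without control or exposed D0 replicate 5 (-0.64 and -0.63), for the D28 change of Cpt1a without control D28 replicate 5 or exposed D28 replicate 4 (0.59 and 0.60), and for Cpt1a in control D3 against D0 without control D0 replicate 2 or 3 or control D3 replicate 5 (-0.60 to -0.59). The change of Angptl4 was called without control D0 replicate 3 or exposed D0 replicate 1 at D28 and D90, without exposed D28 replicate 1 at D28 and without control D90 replicate 4 at D90 (-0.96 to -0.89).

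Signs turned mainly for differences near 0. Acot2 at D0 was -0.02 with the lowest-signal probe. Ehhadh at D28 was 0.01 in the series table, 0.12 with slide as a block and as the mean within slides, and 0.06 without the muscle-high arrays. As means within slides Angptl4 at D28 was -0.08, Ucp3 at D180 -0.02 and Cpt1a at D28 0.24. Leaving out single arrays gave Ehhadh -0.18 to 0.12 at D0 and -0.15 to 0.11 at D28, Pdk4 -0.35 to 0.04 at D28, Acot2 -0.06 to 0.13 at D28, Angptl4 -0.08 to 0.13 at D28 and -0.03 to 0.17 at D90, and Ucp3 -0.16 to 0.09 at D90 and 0.00 to 0.10 at D180. The cause was not tested for any of these. The untested Acot1 differences ran from 0.77 to 1.30 for D28, from 1.42 to 1.78 for D90 and from 1.75 to 2.03 for D180. Over all genes, calls at D0, D3, D28, D90 and D180 numbered 1079, 878, 335, 96 and 82, against 582, 478, 140, 65 and 51 after normexp, 662, 539, 166, 74 and 55 in the series table, and 1406, 1013, 500, 152 and 140 with slide as a block.

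The replicate numbers did not pair the rats. With the replicate block the count of called members at D0 was 1, since Pdk4 (-1.15) had an adjusted p of 0.0605, and over all genes 1053, 868, 313, 91 and 81 were called from D0 to D180. By their correlation 6 control arrays went best with the exposed array of their own number.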
